A study of Drosophila melanogaster with 8 samples.

Results

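Antimicrobial peptide genes were followed in sorted larval macrophages of Drosophila melanogaster on a control diet and a high-sugar diet. The set held 10 genes: the attacin genes AttA, AttB, AttC and AttD, the cecropin genes CecA1 and CecA2, the diptericin genes DptA and DptB, the drosomycin gene Drs and the metchnikowin gene Mtk. Members were found by their FlyBase identifiers among the 11769 genes of the count table. Of the 10, 8 had a row, while AttC and DptA had none and were not analysed here. A low-count filter kept 5 of the 8 for testing, namely CecA1, CecA2, Drs, Mtk and AttB. AttA, AttD and DptB were too scarce for that filter and are described by their counts.

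Antimicrobial peptides are short secreted proteins that damage the membranes of bacteria and fungi or disturb their physiology. In flies their transcription is switched on by NF-κB factors: the Imd pathway, which senses peptidoglycan, ends in Relish (gene Rel), and the Toll pathway, which is opened by the cytokine Spätzle, ends in Dif and Dorsal. The fat body is the best known source, and hemocytes can transcribe these genes as well.

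There were 4 libraries per diet, numbered 1, 3, 4 and 5 for the control diet (CD) and 1 to 4 for the high-sugar diet (HSD). CD was a medium of sucrose and yeast, and HSD was that medium with a 10x sucrose supplement. All larvae were labelled wild type, carried hmlΔ>2xeGFP, a reporter driven by a promoter fragment of the hemocyte gene Hml, and were kept at 25 °C; the labels name no infection. Hemocytes of 5 larvae were collected at 96 h after egg laying and 20000 GFP-positive cells were sorted per library. Summed gene counts ran from 20817891 to 24733521. Whether libraries of a diet came from separate cultures is not given, so the p-values reflect only how far these libraries varied, part of which can be technical. All 11 plasmatocyte markers, Hml among them, were detected in every library, as were all 6 markers of crystal cells, another hemocyte class.

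The members differed widely in level. Per kilobase of exon, Mtk was the most abundant, at 64.3 ± 15.1 CPM (counts scaled to library size) on CD and 77.1 ± 21.5 on HSD (SD, n = 4 each). Drs followed at 27.7 ± 20.3 and 41.7 ± 11.8 CPM per kilobase, then CecA1 at 9.16 ± 4.87 and 21.5 ± 7.68, and CecA2 at 6.02 ± 3.60 and 15.6 ± 4.50. This order from Mtk to CecA2 held in each of the 8 libraries, although within a diet the ranges of neighbours in the order overlapped, except those of Drs and CecA1 on HSD. Among tested genes 87.5% had a lower mean level per kilobase than Mtk, 75.7% a lower one than Drs, 54.2% a lower one than CecA1 and 43.5% a lower one than CecA2.

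The remaining members lay far below, and CecA2 and AttB did not overlap in either diet. AttB stood at 1.23 ± 0.534 CPM per kilobase on CD and 1.08 ± 0.612 on HSD, and 12.2% of tested genes had a lower level. AttD, DptB and AttA had means of at most 0.752 CPM per kilobase in either diet. AttD exceeded DptB in 5 of 8 libraries and DptB exceeded AttA in 5 of 8, so the order of these scarce genes was not settled, although DptB and AttA did not overlap on CD. Mtk and Drs together supplied 77.7% to 81.5% of the reads of all members in a CD library and 70.5% to 75.1% in an HSD library.

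**Figure D1:**
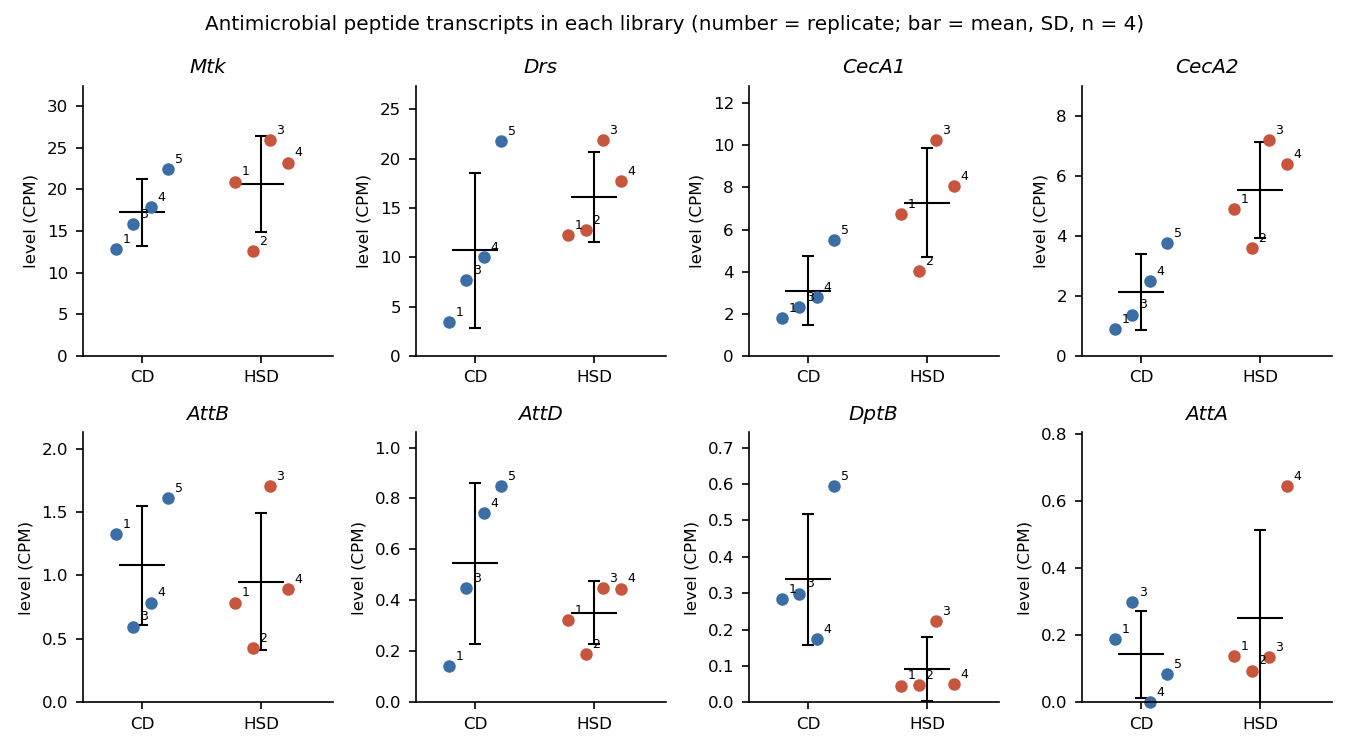
Level of the 8 antimicrobial peptide genes with a row in the table, in CPM, for 4 CD libraries (blue) and 4 HSD libraries (red); small numbers are replicate numbers, black bars are mean and SD, and the vertical scale differs between panels. For CecA1 and CecA2, 3 of 4 HSD libraries lie above every CD library, and for the other 6 genes the diets overlap more widely or, in DptB, 3 of 4 HSD libraries lie below every CD library.

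Both cecropin members rose on the high-sugar diet. Cecropins are helical peptides that lyse mainly Gram-negative bacteria. CecA1 lies on chromosome 3R from 30210874 to 30211273 and CecA2 from 30212156 to 30212568 in the dm6 assembly, both on the plus strand and 882 bases apart. CecA1 had 38, 62, 64 and 130 counts in CD replicates 1, 3, 4 and 5, and 146, 85, 229 and 163 counts in HSD replicates 1 to 4. CecA2 had 19, 37, 57 and 89 counts in the same CD libraries and 106, 76, 161 and 129 in the HSD libraries. For both genes CD replicate 1 was the lowest library and CD replicate 5 the highest on the control diet. HSD replicate 2 was the lowest on the high-sugar diet and fell below CD replicate 5, so the diets overlapped.

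CecA1 averaged 3.10 ± 1.65 CPM on CD and 7.28 ± 2.60 CPM on HSD, a 2.34-fold difference (log2 fold change 1.23 with SE 0.387, edgeR quasi-likelihood test with Benjamini-Hochberg adjustment over all tested genes, adjusted p = 0.0494). CecA2 averaged 2.14 ± 1.28 CPM on CD and 5.53 ± 1.60 CPM on HSD, a 2.58-fold difference (log2 fold change 1.37 with SE 0.393, edgeR adjusted p = 0.0304). Thus 2 of the 5 tested members were called higher, beside 14.4% of all 7844 tested genes, and 0 were called lower, beside 11.6% of all tested genes. DESeq2 and limma-voom gave the same counts of 2 and 0, and so did an unadjusted p under 0.05 in each of the 3 tools. The median log2 fold change of the 5 members was 0.59, and that of all tested genes was −0.01. Exact two-sided permutation tests on log2(CPM + 0.5) gave p = 0.0571 for each cecropin, which misses 0.05, where 4 libraries against 4 allow no p below 0.0286. Because CecA1 and CecA2 are close copies and the handling of reads that match both is not given, the split of counts between them is uncertain. These are bulk samples, in which fewer cells of a type and less RNA per cell cannot be told apart.

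The calls were narrow. For CecA1 the call ended when libraries were scaled by size alone (edgeR adjusted p = 0.0562), without the low-count filter (0.113) and in 6 of the 8 fits that left out 1 library: CD replicate 1, 3 or 4 (0.108, 0.132 and 0.115) or HSD replicate 1, 3 or 4 (0.0926, 0.0934 and 0.121). For CecA2 it ended without the filter (edgeR adjusted p = 0.0803) and in 5 such fits, those lacking CD replicate 3 or 4 (0.0849 and 0.0609) or HSD replicate 1, 3 or 4 (0.0607, 0.0667 and 0.0806). Both calls ended when CD replicate 1 and HSD replicate 4 were dropped at once (edgeR adjusted p = 0.216 for CecA1 and 0.108 for CecA2). With single libraries left out the log2 fold change ran from 1.01 to 1.65 for CecA1 and from 1.14 to 1.79 for CecA2.

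**Figure D2:**
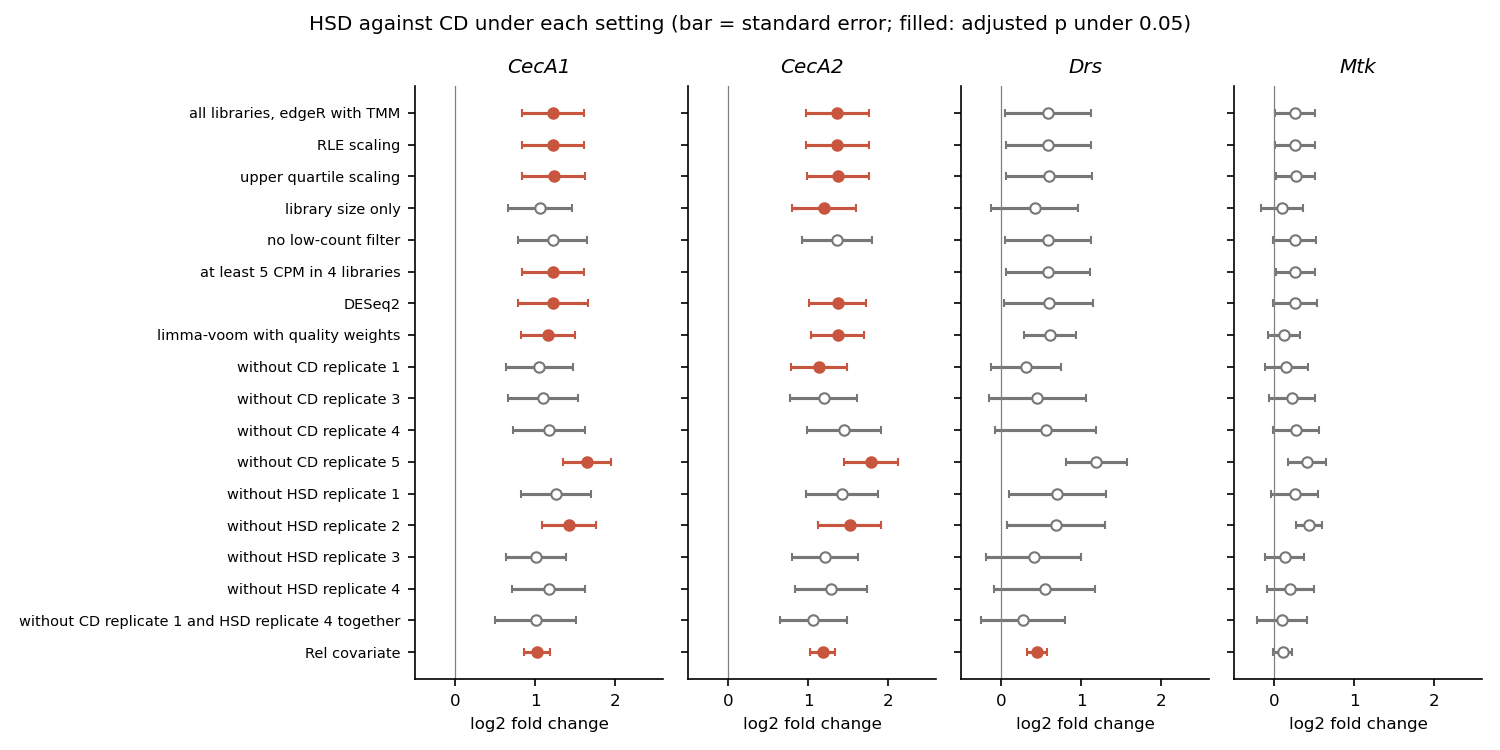
Log2 fold change of HSD against CD (horizontal axis, bars are standard errors) for CecA1, CecA2, Drs and Mtk with each scaling, filter, tool, covariate or left-out library named on the left; filled points have an adjusted p under 0.05. All plotted points lie to the right of 0, and CecA1 and CecA2 lose their filled points in most fits that lack 1 library; CecA2 was not tested at 5 CPM in 4 libraries.

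Hemocyte markers also moved with diet. The 11 plasmatocyte markers summed to 73320 to 84330 CPM on CD and 104600 to 119000 CPM on HSD. Ppn, Hml and Col4a1 weighed most in this sum. Of the 11, 7 were called higher, where 14.4% of all tested genes were, and srp, eater, He and crq were not called. Scaled by library size alone, 4 plasmatocyte markers were called higher and 1 lower. The 6 crystal cell markers summed to 22980 to 27140 CPM on CD and 29410 to 44770 CPM on HSD, with 5 called higher. The 5 lamellocyte markers, of which 3 were detected in every library, summed to 191 to 208 CPM on CD and 350.0 to 371 CPM on HSD. All 5 were called higher, but ItgaPS5 made up most of the sum, at 180 to 197 CPM on CD and 315 to 341 CPM on HSD. On CD, mdu, atilla and ItgaPS4 averaged 0.682, 0.204 and 0.0218 CPM. Of these, atilla and ItgaPS4 passed the low-count filter only through their HSD counts, which set the direction of any call for them. None of the 3 marker sums overlapped between the diets, beside 15.1% of single tested genes that were higher on HSD without overlap. The part of these sums in the cecropin difference was not tested.

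CecB and CecC, the other functional cecropin genes of the cluster, lie beside CecA1 and CecA2 but are not among the 10 members. The 4 genes span 6065 bases, with CecB on the opposite strand to the rest. CecB had 28, 62, 48 and 160 counts on CD and 198, 83, 239 and 207 on HSD, in the library order used above. CecC, the most abundant of the 4, had 65, 147, 156 and 313 counts on CD and 490, 233, 656 and 522 on HSD. In CPM the libraries stood as for CecA1 and CecA2, with CD replicate 1 and HSD replicate 2 lowest and CD replicate 5 and HSD replicate 3 highest within their diets.

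Neither neighbour passed the test in edgeR, with log2 fold changes of 1.44 for CecB (SE 0.548, edgeR adjusted p = 0.103) and 1.63 for CecC (SE 0.488, edgeR adjusted p = 0.0529). DESeq2 gave an adjusted p of 0.0561 for CecB and 0.00744 for CecC, and limma-voom 0.0219 and 0.00705. Without CD replicate 5 both were called by edgeR, CecB with adjusted p = 0.00421 and CecC with 0.0172, and CecC was also called without HSD replicate 2 (0.0331), when libraries were scaled by size alone (0.0493) and at 5 CPM in 4 libraries (0.0457). The shares of the 4 cecropins within a library shifted somewhat between the diets, a difference that was not tested. CecA1 held 18.8% to 25.3% of all cecropin counts on CD and 15.5% to 17.8% on HSD, and CecC held 43.3% to 48.0% on CD and 48.9% to 52.1% on HSD, in neither case with overlap. CecA2 held 12.0% to 17.5% on CD and 11.3% to 15.9% on HSD, and CecB 14.8% to 23.1% and 17.4% to 21.1%, and both overlapped. The 95% Wilson interval of the CecC share ran from 35.7% to 51.3% in CD replicate 1, which had 150 cecropin counts, and from 48.3% to 53.8% in HSD replicate 3, which had 1285. Intervals of this kind cover counting error only, as amplified copies of a fragment cannot be recognised.

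Drs encodes drosomycin, an antifungal peptide and the usual readout of the Toll pathway, and lies on 3L from 3369556 to 3369942 in a single exon. It had 72, 205, 229 and 514 counts in CD replicates 1, 3, 4 and 5 and 265, 269, 489 and 358 counts in HSD replicates 1 to 4. The CD libraries spread over a 6.39-fold range, from 3.41 CPM in replicate 1 to 21.8 CPM in replicate 5, and enclosed nearly the whole HSD range of 12.2 to 21.9 CPM. The mean was 10.7 ± 7.86 CPM on CD and 16.2 ± 4.56 CPM on HSD. Drs did not pass the test (log2 fold change 0.59 with SE 0.535, edgeR adjusted p = 0.479, exact permutation p = 0.20), and with this error equal levels on both diets were not shown either. Without CD replicate 5 the log2 fold change was 1.19 (edgeR adjusted p = 0.0757), and without CD replicate 1 it was 0.31 (adjusted p = 0.64).

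Mtk encodes metchnikowin, a proline-rich peptide active against fungi and Gram-positive bacteria, and lies on 2R. It had 270, 424, 408 and 530 counts on CD and 453, 265, 579 and 468 on HSD. The diets overlapped broadly: in CPM HSD replicate 2 was lower than any CD library, and HSD replicates 3 and 4 were higher than all of them. The mean was 17.2 ± 4.05 CPM on CD and 20.7 ± 5.76 CPM on HSD, and the log2 fold change of 0.26 had an SE of 0.249 (edgeR adjusted p = 0.497, exact permutation p = 0.429). Scaled by library size alone it was 0.095 (edgeR adjusted p = 0.783), and without HSD replicate 2 it was 0.44 (adjusted p = 0.0933).

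AttB was the only attacin gene abundant enough to be tested, and lies on 2R with AttA 1007 bases away. Attacins are glycine-rich peptides directed at Gram-negative bacteria. AttB had 28, 16, 18 and 38 counts on CD and 17, 9, 38 and 18 on HSD. Both the lowest and the highest library were HSD libraries, replicates 2 and 3, so the HSD range enclosed the CD range. The log2 fold change of −0.16 had an SE of 0.42 (edgeR adjusted p = 0.815, exact permutation p = 0.714), and its sign turned without CD replicate 5 (0.10) or HSD replicate 2 (0.077).

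AttA had 4, 8, 0 and 2 counts on CD and 3, 2, 3 and 13 on HSD, so that HSD replicate 4 held 13 of the 21 HSD counts. The 0 in CD replicate 4 allows a level of up to 0.131 CPM, the value of 3 counts there. AttA and AttB are close copies, and reads may have been credited to either. AttD, a more distant attacin gene on 3R from 17625268 to 17626086, had 3, 12, 17 and 20 counts on CD and 7, 4, 10 and 9 on HSD. The HSD libraries of AttD fell inside the CD range, and the ratio of its summed HSD to CD counts, corrected for library size, was 0.639 with an exact 95% counting interval of 0.393 to 1.02.

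DptB, which encodes a glycine-rich diptericin and belongs to the usual readouts of the Imd pathway, had 6, 8, 4 and 14 counts on CD and 1, 1, 5 and 1 on HSD. HSD replicate 3 alone reached the CD range, and the other 3 HSD libraries lay under the lowest CD library. The ratio of its summed counts was 0.277 with a counting interval of 0.11 to 0.613, which leaves out the spread between libraries. The exact permutation test gave p = 0.0571 for DptB, on 32 counts against 8. In the fit without the low-count filter DptB had a log2 fold change of −1.80 (SE 0.659, edgeR adjusted p = 0.0651, DESeq2 adjusted p = 0.088), AttD −0.63 (edgeR adjusted p = 0.424) and AttA 0.74 (0.588), so none of these 3 passed, and DptB alone had an unadjusted p under 0.05. Of DptB exon length 10.7% is shared with CG43109 on the opposite strand, whose reads cannot be told apart without strand.

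The spread between libraries of the same diet was large for the tested members. The within-diet SD of log2(CPM + 0.5) was 0.782 for Drs, 0.579 for CecA2, 0.564 for CecA1, 0.477 for AttB and 0.393 for Mtk. Over all tested genes, not matched for abundance, its median was 0.109 and its 95th percentile 0.349. The biological coefficient of variation, which measures how far libraries differ beyond counting noise relative to the mean, was 0.528 for Drs where the trend at its level was 0.0993. It was 0.37 against a trend of 0.146 for CecA1, 0.38 against 0.169 for CecA2, 0.242 against 0.0848 for Mtk and 0.357 against 0.227 for AttB. All 5 tested members lay above the trend for genes of their abundance. The share of all tested genes above the trend was not counted. Over genes with a mean of 2 to 32 CPM, a range that holds these members except AttB, the median coefficient was 0.0847.

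**Figure D3:**
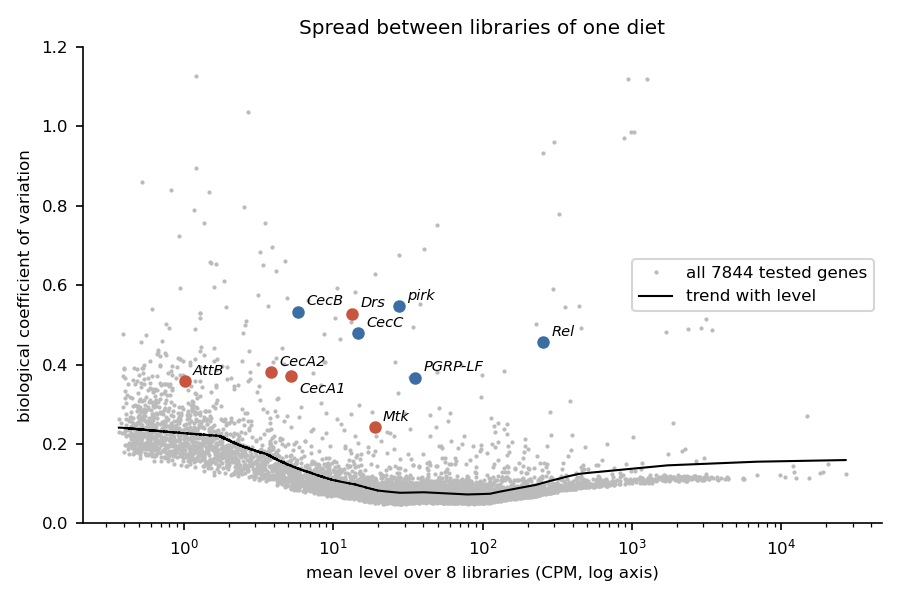
Biological coefficient of variation between libraries of one diet (vertical axis) against mean level in CPM (log axis) for the 7844 tested genes (grey), with the trend as a black line, tested antimicrobial peptide genes in red and other named immune genes in blue. The 10 labelled genes lie above the trend, for example Drs at 0.528 and Rel at 0.456.

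The variation was largely shared among the 5 tested members. CecA1, CecA2 and Mtk all had CD replicate 1 lowest and CD replicate 5 highest, with HSD replicate 2 lowest and HSD replicate 3 highest. Drs had the same extremes except that HSD replicates 1 and 2 were close, at 12.2 and 12.8 CPM, with replicate 1 the lower. AttB also peaked in CD replicate 5 and HSD replicate 3 and was low in HSD replicate 2, but its lowest CD library was replicate 3. Among the 6846 genes averaging 2 CPM or more, 87 (1.27%) showed all 4 of these extremes, which had been read from the members themselves. Of the scarce members, AttD had the 4 extremes of the cecropins. Its HSD peak, however, rested on 10 counts in replicate 3 against 9 in replicate 4. DptB was also highest in CD replicate 5 and HSD replicate 3. On CD it was lowest in replicate 4, at 4 counts against 6 in replicate 1. AttA too was lowest on CD in replicate 4. AttA was highest in CD replicate 3 and HSD replicate 4. Summed over all members, libraries ran from 20.8 CPM in CD replicate 1 to 56.6 CPM in CD replicate 5, and from 33.7 CPM in HSD replicate 2 to 67.8 CPM in HSD replicate 3.

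Rel, the gene of the Imd pathway's NF-κB factor, showed the same 4 extremes and was singled out after its values had been seen. Its level was 94.7, 192, 231 and 439 CPM in CD replicates 1, 3, 4 and 5 and 259, 183, 331 and 309 CPM in HSD replicates 1 to 4. The HSD range lay wholly inside the CD range. Rel did not pass the test (log2 fold change 0.18 with SE 0.475, edgeR adjusted p = 0.828), and the sign turned without CD replicate 1 (−0.079) and without CD replicate 1 and HSD replicate 4 together (−0.147). Its coefficient of variation was 0.456 where the trend was 0.102. The genes of the other NF-κB factors varied little within a diet: Dif ranged 1.17-fold over the CD libraries and 1.14-fold over the HSD libraries, and dl (Dorsal) 1.06-fold and 1.12-fold, against 4.64-fold and 1.81-fold for Rel.

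**Figure D4:**
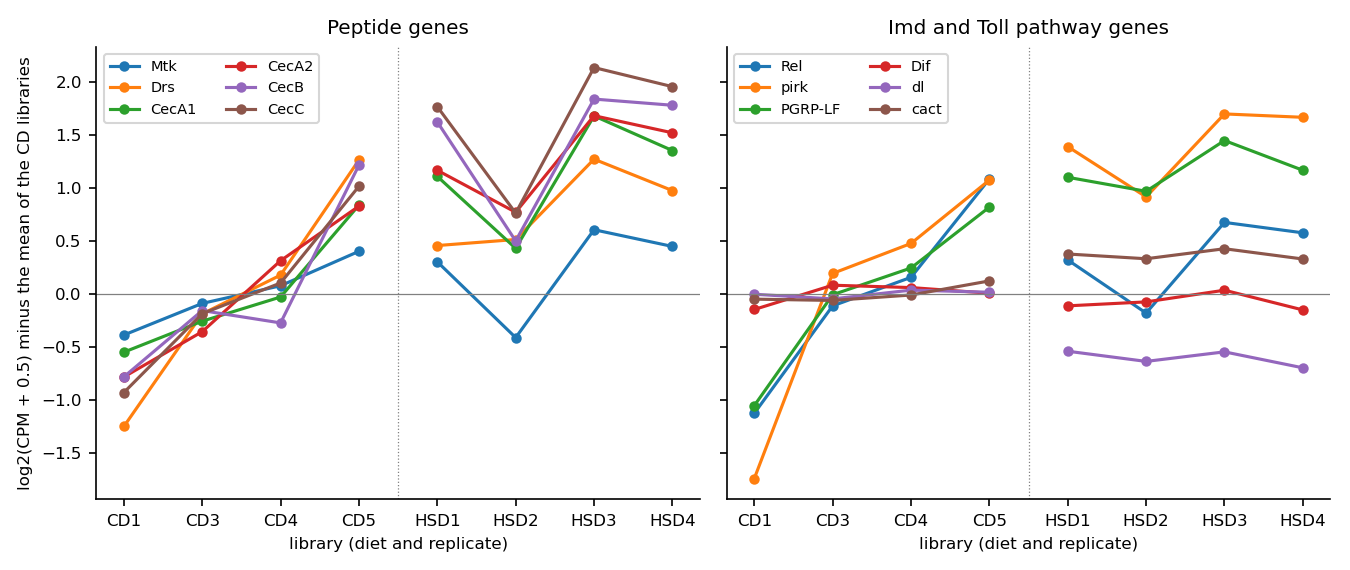
Log2(CPM + 0.5) of each gene minus its mean over the CD libraries (vertical axis) in every library (horizontal axis), for 6 peptide genes (left) and 6 pathway genes (right); lines join the values of a gene within a diet and imply no order of libraries. CD replicate 1 is lowest and CD replicate 5 highest among CD libraries for all 6 peptide genes and for Rel, pirk and PGRP-LF, while Dif, dl and cact stay nearly level within each diet.

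Because the libraries moved together, the fit was repeated with the log2 level of Rel as a covariate, an alternative chosen after the data were seen. Within a diet Rel had a correlation of 0.911 with CecA1, 0.959 with CecA2, 0.971 with Drs, 0.915 with CecB and 0.962 with CecC. Smaller errors for these genes thus follow from the choice of Rel, and their p-values in this fit are not firmer evidence than the main ones. Rel shared 7.63% of its variance with diet. CecA1 then had a log2 fold change of 1.02, and its SE was 0.16 in place of 0.387 (edgeR adjusted p = 0.000512). CecA2 stood at 1.18 with SE 0.157 (edgeR adjusted p = 0.000142), and Drs at 0.45 with SE 0.122 (edgeR adjusted p = 0.0167), so Drs was called higher in this fit. Mtk was still not called (log2 fold change 0.10, edgeR adjusted p = 0.576), nor was AttB (−0.29, adjusted p = 0.653). CecB and CecC passed too, at 1.25 and 1.41 (edgeR adjusted p = 0.000227 and 3.81e-06). Over all tested genes this fit made 2227 calls, beside 2040 without the covariate.

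Ratios between members in the same library do not depend on how libraries are scaled. There were 0.141, 0.146, 0.157 and 0.245 CecA1 reads per Mtk read in CD replicates 1, 3, 4 and 5, and 0.322, 0.321, 0.396 and 0.348 in HSD replicates 1 to 4. These values did not overlap, and their mean log2 difference was 1.04. The ratio of CecA2 to Mtk ran from 0.0704 to 0.168 on CD and from 0.234 to 0.287 on HSD, also without overlap, with a mean log2 difference of 1.29. The ratio of CecA2 to Drs likewise separated the diets, at 0.173 to 0.264 on CD and 0.283 to 0.40 on HSD. For each of these 3 ratios the exact two-sided permutation p was 0.0286, the smallest the design allows, and 0.0571 after Benjamini-Hochberg adjustment over the 6 ratios examined, which were chosen after the data were seen. The ratios of CecA1 to Drs (exact permutation p = 0.20), Drs to Mtk (0.20) and CecA1 to CecA2 (0.229) overlapped between the diets.

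The genes most like each member were listed by the Pearson correlation of log2(CPM + 0.5) over the 8 libraries, as a description, since all values share the same libraries and hold the diet difference. CecC (r = 0.988), CecB (0.983) and olf186-M (0.983) were closest to CecA1, and CecC (0.983), olf186-M (0.983) and CG8620 (0.969) to CecA2. For Drs the closest were antr (0.979), AnxB9 (0.971) and sp3 (0.968), and for Mtk they were Spn42Da (0.943), CG32687 (0.912) and Orc4 (0.902). None of these 10 genes was called in the diet comparison, beside 26.0% of all tested genes, with edgeR adjusted p from 0.0529 for CecC to 0.621 for CG32687. They were picked for following members that spread widely within a diet, so this count says little about them. CecA1 and CecA2 had a correlation of 0.974 with each other, and CecA1 had one of 0.871 with Drs and 0.834 with Mtk.

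Fat body markers were read beside the library pattern. All 9 had a row, 8 were detected in every library, and their sum was 158 to 223 CPM on CD and 159.5 to 178 CPM on HSD. The larval serum protein and Fbp genes among them, which are the most specific to that tissue, summed to 44.0, 70.6, 13.5 and 12.8 CPM in CD replicates 1, 3, 4 and 5 and to 13.9 to 19.8 CPM on HSD, with Fbp1 at 0 in at least 1 library. This smaller sum was thus higher in CD replicates 1 and 3 than in the other 6 libraries, and its part in the peptide values was not tested. Of the 9 markers 7 were tested, with 1 called higher and 1 lower, beside 14.4% and 11.6% of all tested genes. Apoltp rose from a mean of 56.5 to 85.1 CPM (edgeR adjusted p = 4.42e-05). Mtp fell from 92.3 to 63.9 CPM (edgeR adjusted p = 1.90e-05), so they moved in opposite directions within the full sum.

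Markers of other tissues were summed as well. The 7 salivary gland markers, none of them detected in every library, summed to 0.672 to 5.87 CPM on CD and 0.0462 to 0.179 CPM on HSD. The 9 muscle markers summed to 31.0 to 54.3 CPM on CD and 89.8 to 115 CPM on HSD. Of the latter sum, the titin-like gene bt alone made up 19.7 to 40.6 CPM on CD and 77.5 to 103 CPM on HSD. It was the 1 gene called higher among the 7 tested, beside 14.4% of all tested genes. Without bt the other 8 summed to 11.2 to 13.6 CPM on CD and 12.0 to 16.5 CPM on HSD, which overlapped. The 9 of 11 midgut markers with a row summed to 2.32 to 3.73 CPM on CD and 2.13 to 6.69 CPM on HSD, and the 7 of 9 epidermal markers with a row to 4.52 to 14.2 and 6.16 to 12.9 CPM. The part of these tissues in the peptide values was not tested.

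Other immune effector genes were mostly scarce. Of 32 further genes, which cover cecropins, defensin, drosocin, drosomycin-like peptides, baramicins and bomanins among others, 15 had a row and 3 were tested. None of the 3, CecB, CecC and Mtkl, passed the adjusted threshold in edgeR, although all 3 had an unadjusted p under 0.05, and 2 passed in DESeq2 and 3 in limma-voom. Mtkl, a metchnikowin-like gene, had 207, 448, 445 and 505 counts on CD and 477, 489, 591 and 549 on HSD. In CPM every HSD library of Mtkl lay above every CD library, as was so for 15.1% of tested genes. Its log2 fold change was 0.55 (SE 0.211, edgeR adjusted p = 0.0952), and it was called without CD replicate 1 (adjusted p = 0.00765) and without CD replicate 5 (0.0477).

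Some untested effectors were looked up after the data had been seen. The defensin gene Def had 30 counts on CD and 19 on HSD, and the drosocin gene Dro had 2 counts in all. BaraA1, which encodes baramicin peptides, had 6, 6, 7 and 8 counts on CD and 16, 14, 9 and 16 on HSD. In CPM every HSD library of BaraA1 lay above every CD library, beside 15.1% of tested genes for which that was so. Of BaraA1 exon length 23.5% is shared with CG30059 on the opposite strand. Of the bomanin genes listed, only BomS1, BomT1 and BomBc1 had a row, with 6, 5 and 4 counts in all and none in any CD library. No row of the table had fewer than 2 counts, so these genes had a row only through their HSD counts. Their lack of CD counts is therefore no evidence of a diet difference. On HSD, BomS1 had 5, 0, 1 and 0 counts, BomT1 4, 0, 0 and 1, and BomBc1 0, 0, 2 and 2, so that replicate 1 held most counts of the first pair.

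In the activating arm of the Imd pathway all 11 genes were tested, 1 rose and 1 fell, beside 14.4% and 11.6% of all tested genes, with a median log2 fold change of 0.099. IKKbeta, the kinase gene whose product phosphorylates Relish, rose from 25.9 ± 1.85 CPM on CD to 40.9 ± 2.64 CPM on HSD (log2 fold change 0.66, edgeR adjusted p = 1.63e-05). Of IKKbeta exon length 8.08% is shared with a noncoding gene on the same strand. Tak1, the gene of the kinase above it, fell from 60.1 ± 1.46 to 53.0 ± 3.06 CPM (log2 fold change −0.18, edgeR adjusted p = 0.0266). That call was lost when CD replicate 3, 4 or 5 or HSD replicate 1, 2 or 4 was left out (edgeR adjusted p from 0.059 to 0.0816).

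Of 11 genes that dampen the Imd pathway 8 were tested, 1 rose and 2 fell, beside the same 14.4% and 11.6% of all tested genes, with a median log2 fold change of 0.068. PGRP-LB, whose product is an amidase that degrades peptidoglycan, rose from 3.93 ± 0.372 to 5.44 ± 0.752 CPM (log2 fold change 0.47, edgeR adjusted p = 0.0238). Its call was lost when libraries were scaled by size alone (edgeR adjusted p = 0.0956), without CD replicate 3 (0.0635), without HSD replicate 1 or 4 (0.0724 and 0.0669) and without CD replicate 1 and HSD replicate 4 together (0.0753). The gene casp, which encodes the inhibitor Caspar, fell by 0.19 on the log2 scale (edgeR adjusted p = 0.0125, and 0.0538 without CD replicate 3). The deubiquitinase gene scny fell by 0.17 (edgeR adjusted p = 0.0395), a call lost when CD replicate 3, 4 or 5 or HSD replicate 1, 2 or 4 was left out (0.0824 to 0.111).

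The dampening genes pirk and PGRP-LF varied as the peptide genes did and were picked out once their values were known. The feedback inhibitor gene pirk had 3.74, 15.7, 19.2 and 29.3 CPM on CD and 36.5, 26.2, 45.4 and 44.3 CPM on HSD. PGRP-LF, whose product blocks the peptidoglycan receptor, had 9.76, 20.6, 24.7 and 37.0 CPM on CD and 45.0, 41.1, 57.4 and 47.2 CPM on HSD. Both showed the 4 extremes of the cecropins. PGRP-LF was higher on HSD without overlap, as were 15.1% of tested genes. Neither passed in edgeR, with log2 fold changes of 1.16 for pirk (SE 0.522, edgeR adjusted p = 0.163) and 1.05 for PGRP-LF (SE 0.365, edgeR adjusted p = 0.0844). PGRP-LF was called without CD replicate 1 (edgeR adjusted p = 0.0415) or CD replicate 5 (0.0249), DESeq2 called PGRP-LF (adjusted p = 0.0315) but not pirk (0.131), and limma-voom called both (adjusted p = 0.00247 for PGRP-LF and 0.0173 for pirk). Of PGRP-LF exon length 44.4% is shared with UGP on the opposite strand.

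Of 17 Toll pathway genes 13 were tested, 6 rose and 3 fell, beside 26.0% of all tested genes called in either direction. The protease gene modSP rose from 13.3 ± 1.02 to 30.0 ± 3.44 CPM (log2 fold change 1.17, edgeR adjusted p = 1.30e-06). Likewise, the gene of the ligand Spätzle, spz, rose from 600.5 ± 23.0 to 882 ± 67.9 CPM (0.56, edgeR adjusted p = 2.65e-05). The NF-κB gene dl fell from 39.3 ± 0.968 to 25.7 ± 1.36 CPM (log2 fold change −0.61, edgeR adjusted p = 5.85e-06), and the adaptor gene tub from 74.2 ± 2.43 to 55.9 ± 0.707 CPM (−0.41, edgeR adjusted p = 3.80e-05). Dif had a log2 fold change of −0.08 and did not pass (edgeR adjusted p = 0.409). Scaling by library size alone moved the median of all tested genes to −0.17; it gave 4 higher and 4 lower Toll genes, 1 and 5 activating Imd genes and 0 and 4 dampening Imd genes, so these splits are relative to the scaling used.

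**Figure D5:**
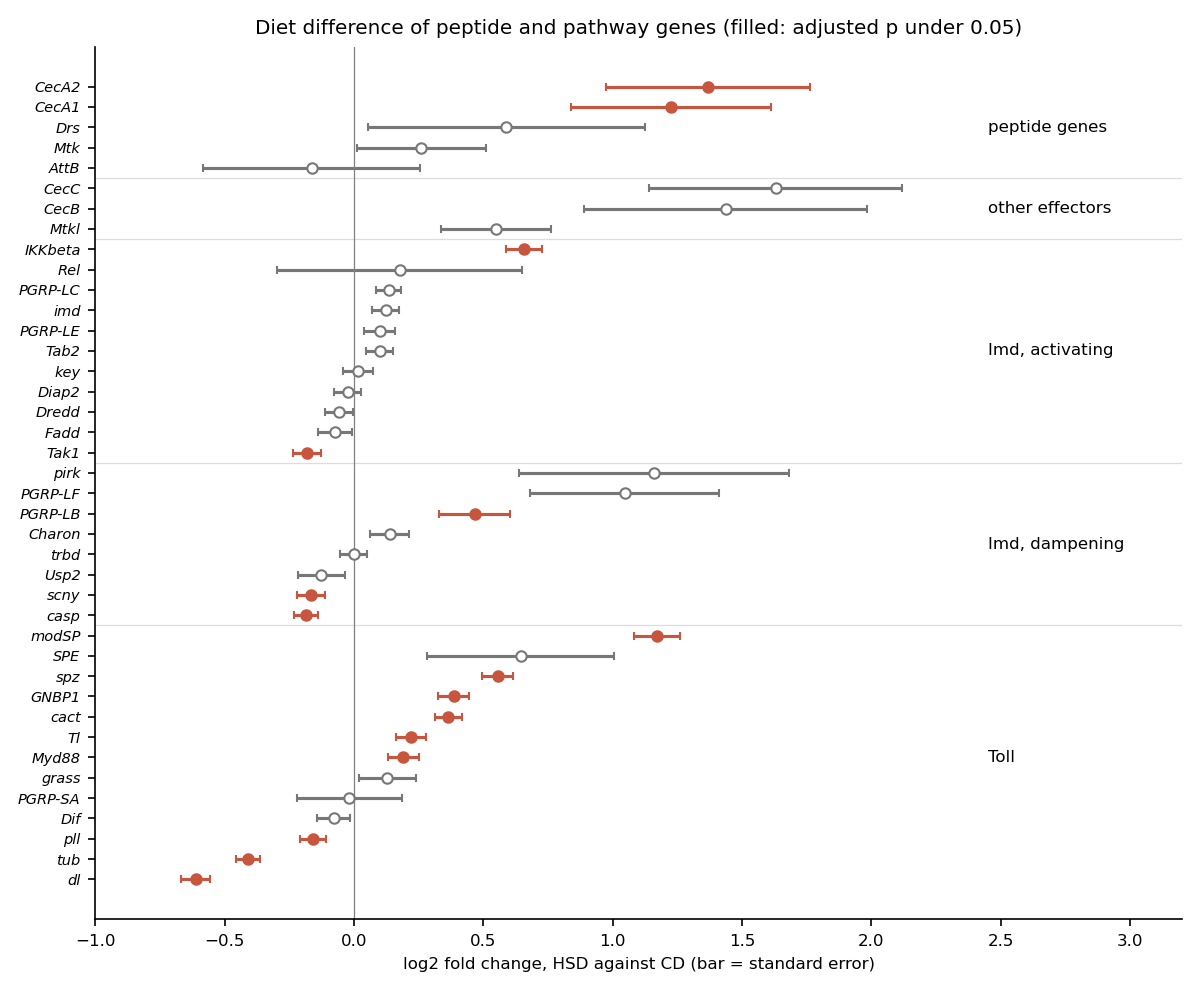
Log2 fold change of HSD against CD (horizontal axis, bars are standard errors) for the tested antimicrobial peptide genes, other effectors, Imd genes and Toll genes; filled points have an adjusted p under 0.05. The peptide genes have wide bars, as have Rel, pirk and PGRP-LF, while modSP at 1.17 and dl at −0.61 have narrow ones.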

How the data were processed

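The authors deposited whole-number read counts per gene for 8 libraries. Per the submitters' processing notes the tools were Trim Galore 0.6.7, STAR 2.7.10a and featureCounts, with the dm6 build; the sources used here give neither the strand setting nor the rule for multiply mapped reads. Ensembl 115 supplied symbols, positions and exon lengths. Genes were kept by filterByExpr (minimum count 10), scaled by TMM and tested for diet with edgeR 4.0.16 in R 4.3.3 (robust quasi-likelihood, Benjamini-Hochberg over 7844 genes, threshold 0.05). The fit was tested on simulated data. CPM uses TMM-scaled library sizes, and the SE is the size of the log2 fold change over the square root of F. Exact permutation tests used SciPy 1.17.1. Replicates of a diet were distinct libraries, with a chi-square per degree of freedom of 7.19 to 118.

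The members and lists were chosen with earlier results of these data known. The rule for names took all members, the 3 most abundant other effectors, up to 4 called genes of each pathway list by smallest p and the 3 genes most correlated with each member above 2 CPM. Rel, pirk, PGRP-LF, Dif, cact, Myd88, pll, Def, Dro, BaraA1 and the bomanins fall outside it. Alternatives were scaling by RLE, by upper quartile or by library size alone, no filter, a filter of 5 CPM in 4 libraries, limma-voom with quality weights (limma 3.58.1), DESeq2 1.42.0, a replicate block, left-out libraries, a threshold of 0.1 and, added later, a Rel covariate.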

Additional observations from a re-analysis of the deposited data

Results flagged for a closer look

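A gene was marked in a diet when 1 library stood apart from the other 3 by a gap that filled most of the range (Dixon's criterion at 95%). Of 28 such groups of 4 libraries 2 were marked, and chance marks about 1 in 20. AttA in HSD replicate 4 stood at 0.644 CPM from 13 counts, against 2 or 3 counts in the other HSD libraries, with a gap of 0.92 of the range. DptB in HSD replicate 3 stood at 0.224 CPM from 5 counts, against 1 count in each other HSD library, with a gap of 0.981 of the range.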

How the results depend on the processing

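The number of members called higher, 2 with all libraries, was 1 when libraries were scaled by size alone, 0 without the low-count filter, 1 at 5 CPM in 4 libraries (where CecA2 and AttB were not tested), 0 without CD replicate 1 and HSD replicate 4 together, and 0 to 2 when single libraries were left out. RLE, upper quartile, DESeq2, limma-voom and the threshold of 0.1 left it at 2, and the Rel covariate gave 3. No member was called lower under any of these alternatives or the replicate block. Over all genes, 2040 calls became 3851 when libraries were scaled by size alone and 842 with the replicate block, and ran from 1589 to 2631 without single libraries. AttB changed sign with the block (log2 fold change 0.33), and without single libraries it ran from −0.61 to 0.10, turning without CD replicate 5 (0.10) and HSD replicate 2 (0.077). CecA1, CecA2, Drs and Mtk kept their direction. The replicate block called 4 members higher, adding Drs and Mtk. Only numbers 1, 3 and 4 occurred on both diets, so CD replicate 5 and HSD replicate 2 did not inform the diet difference in the block. However, libraries of the same number did not deviate together (correlations of −0.27, −0.113 and −0.278). CD replicates 1, 3 and 4 each correlated best with an HSD library of another number, and no label ties a number to anything shared. The cause of these changes was not tested. Counts of 0 to 20 per library in AttA, AttD and DptB limit what could be detected there.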
